A study of Rattus norvegicus with 8 samples.

Results

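Aquaporins are the water channels of the nephron, and the genes described here are 7 of them, Aqp1, Aqp2, Aqp3, Aqp4, Aqp6, Aqp7 and Aqp11, together with Avpr2, the vasopressin V2 receptor, and Slc14a2, the urea transporter of the collecting duct. They were taken as the probes of a rat expression array whose RefSeq transcript accession belongs to one of these symbols. This gave 12 probes for 9 genes, out of 30367 probes and 15637 gene symbols on the array, and every probe was kept apart. Testing required that 4 or more of the 8 arrays read a probe well above background, which 10 of the 12 probes, for 8 of the 9 genes, fulfilled. The probes left out were the 2 of Slc14a2.

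Kidneys of 10-week-old male SD rats (Sprague-Dawley, an outbred laboratory strain) were measured after 4 weeks of APL at 150 mg/kg (n = 4) or 4 weeks of the vehicle, 0.5% methylcellulose (n = 4). APL is read as allopurinol, an inhibitor of xanthine oxidase, because the series title names allopurinol as the agent that produced the fibrosis model. The title speaks of renal tubules and the tissue label of kidney, and nothing in the labels says that replicates were separate animals, so the p-values measure the spread between these samples. Slc34a1 of the proximal tubule, Slc12a1 of the thick ascending limb and Aqp2 of the collecting duct were well above background on every array.

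Water is reabsorbed through Aqp1 in the proximal tubule and the descending thin limb without hormonal control. In the principal cells of the collecting duct, vasopressin binds Avpr2, cyclic AMP rises, and vesicles carrying Aqp2 fuse with the apical membrane, while longer exposure also raises transcription of Aqp2. Water then leaves the cell through Aqp3 and Aqp4 on the other side. Aqp6 lies in vesicles of intercalated cells, the acid-handling neighbours of principal cells. Aqp7 carries glycerol and water in the straight part of the proximal tubule, and Aqp11 lies inside proximal tubule cells. Urea that passes through the product of Slc14a2 into the inner medulla helps to concentrate the urine.

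The stretches of DNA just before the start of the Aqp1 and Aqp2 genes are shown because these channels were called in opposite directions and stand for the unregulated and the vasopressin-regulated part of water reabsorption. Both are the 250 bases before the start on the plus strand of the rat build GRCr8, from RefSeq, at chr4:85812534-85812783 for Aqp1 and chr7:132590036-132590285 for Aqp2. Capitals mark matches, on either strand, to the core of the cyclic AMP response element (TGACGT or its reverse complement ACGTCA), the GATA factor motif (AGATAA or TTATCT), the TATA box (TATAAA or TTTATA) and the GC box (GGGCGG or CCGCCC).
Aqp1: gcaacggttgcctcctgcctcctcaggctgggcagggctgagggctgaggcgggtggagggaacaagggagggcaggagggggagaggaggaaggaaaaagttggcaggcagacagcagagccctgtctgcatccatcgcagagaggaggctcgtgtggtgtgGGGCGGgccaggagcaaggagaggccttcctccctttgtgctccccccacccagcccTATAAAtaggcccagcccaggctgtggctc
Aqp2: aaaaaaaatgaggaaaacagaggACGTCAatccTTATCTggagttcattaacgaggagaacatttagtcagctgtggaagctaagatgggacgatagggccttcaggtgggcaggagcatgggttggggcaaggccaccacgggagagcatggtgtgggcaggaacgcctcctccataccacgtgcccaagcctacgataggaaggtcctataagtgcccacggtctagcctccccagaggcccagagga
The Aqp2 stretch holds the reverse complement of the cyclic AMP element 227 bases and that of the GATA motif 217 bases before the start, and the Aqp1 stretch a TATA box at 30 and a GC box at 87 bases. Among 33469 promoter stretches of the same length, 6.95% hold the cyclic AMP element, 10.3% the GATA motif, 12.9% the TATA box and 30.5% the GC box. A match of letters is a description and shows no binding.

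Allopurinol kidneys had less transcript of the proximal tubule channels Aqp1, Aqp7 and Aqp11 and more of Aqp2, the vasopressin-regulated channel, and of Aqp4 on 1 of its 3 probes. The other aquaporin probes and Avpr2 were not called. The higher Aqp4 probe, A_44_P561166, met the detection rule through the allopurinol group. All 4 allopurinol arrays but just 2 control arrays read it well above background. The Aqp4 probe that every array read well above background, A_64_P036063, had a log2 fold change of 0.52 (adjusted p = 0.405 with limma). Levels below are the processed signal divided by the 75th percentile of the array, and a probe is called at a Benjamini-Hochberg adjusted p under 0.05 in a limma fit over all 24343 probes tested. Of the 10 member probes tested, 2 were called higher and 3 lower, where 11.8% of all probes were called higher and 10.9% lower. For the same 5 probes the groups did not overlap, which was the case upward for 14.1% and downward for 15.4% of all probes. The median log2 fold change of the 10 probes was 0.74, against -0.01 over all probes.

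**Figure D1:**
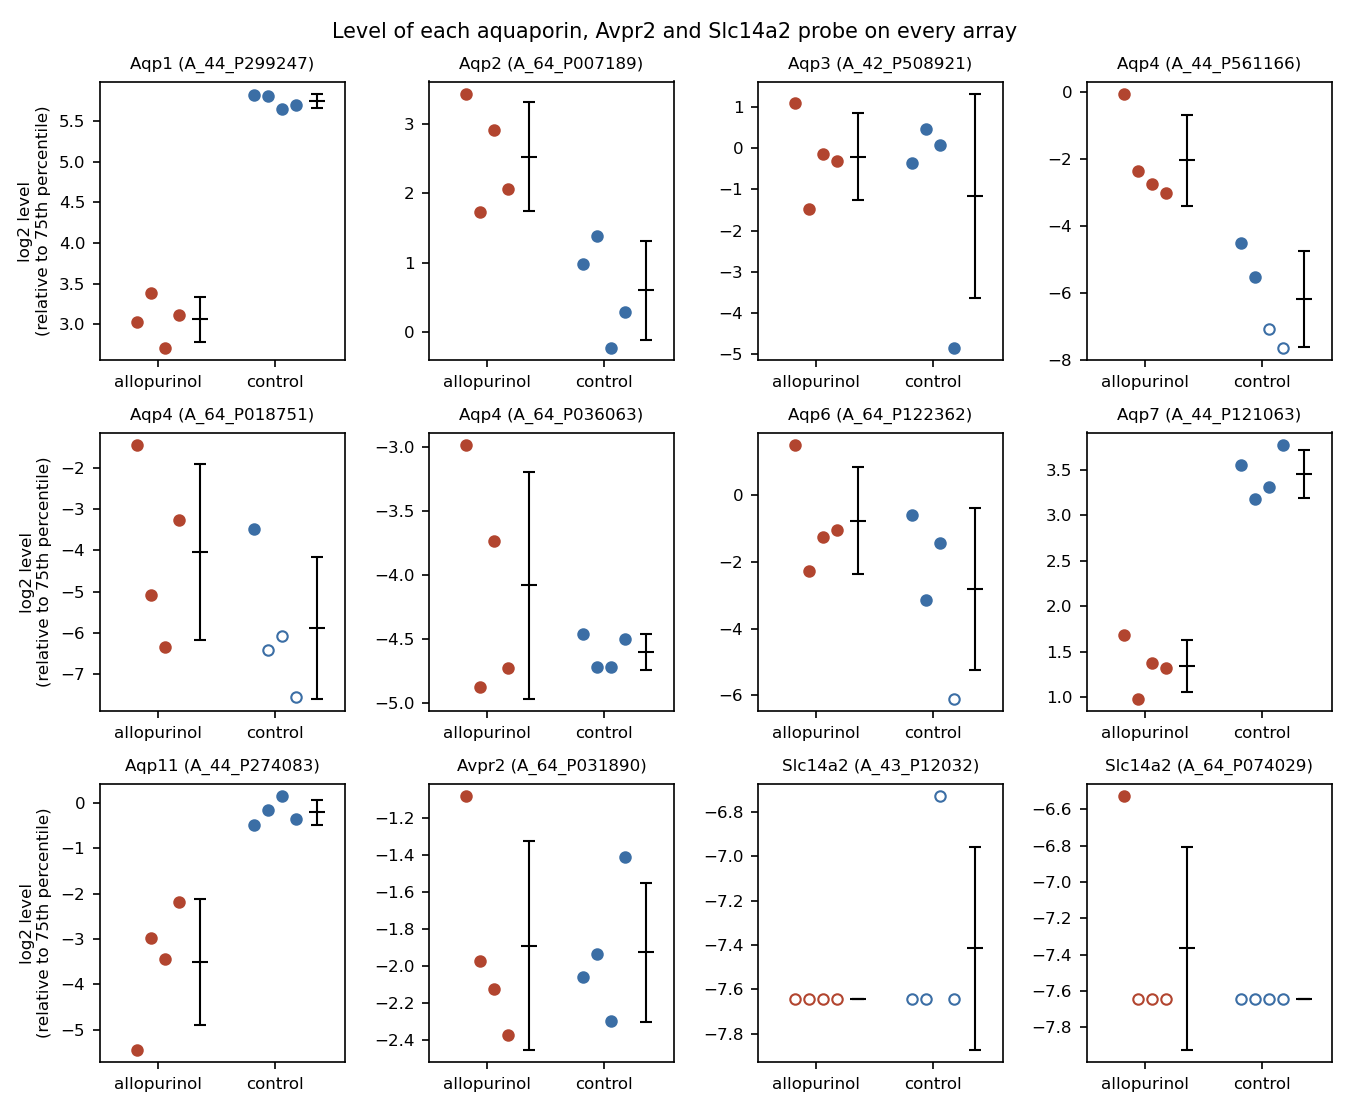
Log2 level, relative to the 75th percentile of the array, of each of the 12 probes on every array, allopurinol left of control, with bars for the mean and SD (n = 4 each); open circles are arrays on which the probe was not well above background, and each panel has its own axis. Aqp1, Aqp7 and Aqp11 lie lower in every allopurinol sample and Aqp2 and 1 probe of Aqp4 higher, while the bars of Aqp3 and Aqp6 are stretched by control replicate 4.

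Aqp1, the constitutive water channel, was read by 1 probe (A_44_P299247) printed in 10 spots per array. Its level was 8.13, 10.5, 6.55 and 8.67 in allopurinol replicates 1 to 4, against 56.4, 56.1, 49.96 and 51.9 in control replicates 1 to 4. No allopurinol sample came near any control sample, and the spread inside either group was small beside the gap between them. The level was 6.42-fold lower with allopurinol, a log2 fold change of -2.68 ± 0.21 (moderated SE, 95% interval -3.16 to -2.21, adjusted p = 0.000113 with limma). The 10 spots of a single array varied by a coefficient of variation of 1.72% to 4.13%. The log2 fold change was -2.61 on the slide with replicates 1 and 2 and -2.76 on the slide with replicates 3 and 4. In these bulk samples fewer proximal tubule cells and less Aqp1 RNA per cell cannot be told apart.

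Aqp7, an aquaglyceroporin that takes up glycerol as well as water, had levels of 3.21, 1.98, 2.61 and 2.49 in the allopurinol samples, against 11.8, 9.05, 9.95 and 13.7 in the control samples. The groups were again far apart, with the highest allopurinol sample well below the lowest control sample. Its level was 4.33-fold lower, a log2 fold change of -2.12 ± 0.23 (95% interval -2.65 to -1.58, adjusted p = 0.000629 with limma).

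Aqp11, an aquaporin of intracellular membranes whose loss in mice gives cystic proximal tubules, had levels of 0.0230, 0.126, 0.0914 and 0.221 with allopurinol, against 0.715, 0.898, 1.10 and 0.784 in control. Every allopurinol sample lay below every control sample, and the allopurinol samples differed among themselves more than the control samples did, replicate 1 being the lowest. The log2 fold change was -3.30 ± 0.63 (95% interval -4.76 to -1.84, adjusted p = 0.00848 with limma). Its size depended on the background correction. After normexp, a model-based background correction, it was -1.27 when arrays were scaled to the 75th percentile (adjusted p = 0.109, not called) and -1.67 when they were quantile normalized (called).

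Most other markers of the proximal tubule were lower beside these 3 genes. Of 16 proximal tubule marker genes tested, 13 were lower and 2 higher, where 12.1% of all genes with a symbol were lower and 12.5% higher at 1 probe a gene, the higher ones being the glucose carrier Slc5a2 and the lactate carrier Slc5a12, named after their values were seen. The summed level of the list was 46.8 to 73.3 in the allopurinol samples and 718 to 819 in the control samples. When every array was scaled instead to the mean of 7 of these markers (Slc34a1, Slc5a2, Lrp2, Cubn, Slc22a6, Slc22a8 and Slc13a3), 2.81 was added to the log2 fold change of every probe. On that scale, the log2 fold change was 0.13 for Aqp1 (adjusted p = 0.798), 0.69 for Aqp7 (adjusted p = 0.166) and -0.49 for Aqp11 (adjusted p = 0.497), and none of them was called. Of the 7 markers, Slc5a2 was itself higher (log2 fold change 3.04) and Cubn was not called (-0.53). The others lay between -2.15 (Lrp2) and -6.51 (Slc22a6), so the added 2.81 depends on which markers are averaged. Scaled to 4 principal cell markers, the values of Aqp1, Aqp7 and Aqp11 were -3.82, -3.26 and -4.44. These scalings show each change relative to the markers chosen and do not measure cell number, whose part in the decreases was not tested. The median log2 fold change of the 16 markers was -4.21, further from 0 than the value of any of the 3 genes.

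**Figure D2:**
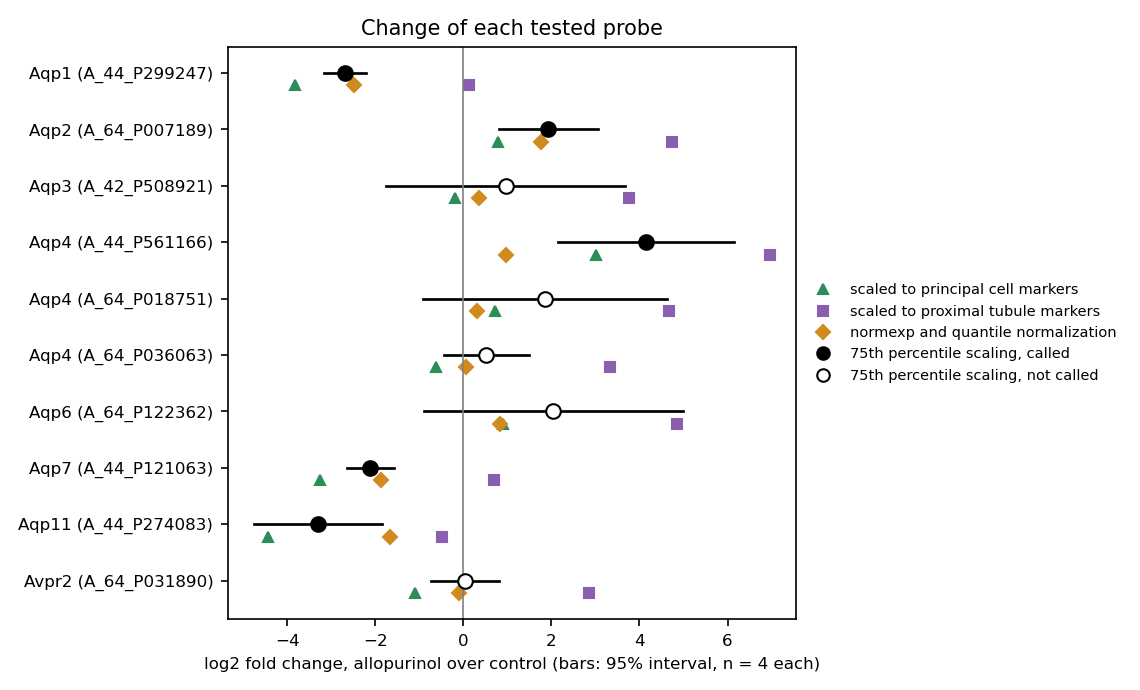
Log2 fold change of each tested probe, allopurinol over control, with its 95% interval (n = 4 each, filled where called), and the same value under 3 other ways of processing. Scaled to 7 proximal tubule markers, 1 of them higher with allopurinol, Aqp1, Aqp7 and Aqp11 lie at 0.13, 0.69 and -0.49. Scaled to 4 principal cell markers, none of them called, Aqp2 lies at 0.79.

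Aqp2, the channel that vasopressin inserts into the apical membrane of principal cells, had levels of 10.8, 3.30, 7.52 and 4.16 in the allopurinol samples, against 1.97, 2.60, 0.853 and 1.22 in the control samples. All 4 allopurinol samples were higher than all 4 control samples, but allopurinol replicate 2 lay close above control replicate 2. The level was 3.81-fold higher, a log2 fold change of 1.93 ± 0.49 (95% interval 0.81 to 3.05, adjusted p = 0.0259 with limma). On the slide with replicates 1 and 2 the log2 fold change was 1.40, and on the slide with replicates 3 and 4 it was 2.46.

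In the 8 fits that left out 1 array, the log2 fold change of Aqp2 ran from 1.63 to 2.20. Its call lay near the threshold and was kept in just 4 of these fits. It was lost without control replicate 3 (log2 fold change 1.65, adjusted p = 0.0552), without control replicate 4 (1.82, adjusted p = 0.0604), without allopurinol replicate 1 (1.63, adjusted p = 0.0563) and without allopurinol replicate 3 (1.80, adjusted p = 0.0648). Normexp before the 75th percentile scaling ended it too (1.55, adjusted p = 0.0917). Scaled to the principal cell markers Scnn1a, Scnn1b, Scnn1g and Hsd11b2, the log2 fold change of Aqp2 was 0.79 ± 0.45 (adjusted p = 0.178) and was not called. This scaling added -1.14 to every log2 fold change, a value that depends on the markers averaged. Scnn1g (2.78) and Hsd11b2 (1.72) lay high without being called, whereas Scnn1a (-0.08) and Scnn1b (0.14) hardly moved. Scnn1g was dim in control, with just 2 control arrays reading it well above background. Its value fell to 0.96 with normexp before 75th percentile scaling and to 0.53 before quantile normalization.

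Principal cell markers moved unevenly beside Aqp2. Scnn1b, a subunit of the epithelial sodium channel, had a log2 fold change of 0.14 ± 0.32 (adjusted p = 0.771) and Scnn1g, another subunit, 2.78 ± 0.95 (adjusted p = 0.0702, called without control replicate 2 at an adjusted p = 0.0299 and with the slide as a block at 0.0411). Hsd11b2, which shields the mineralocorticoid receptor from cortisol-type steroids, had 1.72 ± 0.71 (adjusted p = 0.120). Without scaling between arrays Hsd11b2 (2.36, adjusted p = 0.0394) and Scnn1g (3.42, adjusted p = 0.0273) were both called. Of 10 principal cell genes tested, 2 were higher, 1 lower and 7 not called (all genes: 12.5% higher, 12.1% lower), with a median of 1.14. Their summed level was 10.3 to 18.8 in the allopurinol samples and 11.9 to 16.8 in the control samples. Most of the control sums was St6gal1, without which the sums were 8.57 to 16.2 with allopurinol and 1.22 to 3.95 in control. The called ones, named after their values were seen, were the keratin Krt18 (4.86 ± 1.32), the tetraspanin Tspan8 (4.42 ± 0.42) and the sialyltransferase St6gal1, which fell by 2.47 ± 0.27. Leaving out St6gal1 thus removed the 1 gene called lower. Most of the allopurinol sums without it came from Tspan8 (levels 4.45 to 9.98), Hsd11b2 (1.36 to 6.93) and Krt18 (2.01 to 3.05). Scnn1a (-0.08) and Kcnj1 (-1.025), also of this list, did not rise and were not called.

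Aqp3, the basolateral water and glycerol channel of principal cells, was printed in 10 spots per array under 1 probe. Its level was 2.15, 0.358, 0.910 and 0.808 in the allopurinol samples, against 0.782, 1.37, 1.06 and 0.0348 in the control samples. Allopurinol samples lay on both sides of the first 3 control samples, and control replicate 4 stood far below all others. Its log2 fold change was 0.96 ± 1.18 (95% interval -1.75 to 3.67, adjusted p = 0.588 with limma) and turned to -0.27 without control replicate 4 (adjusted p = 0.777). All 10 Aqp3 spots of that array were dim, with processed signals between 7.39 and 12.5. A rise or a fall by several fold lies inside the interval.

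Aqp4, the other basolateral water channel of principal cells, was read by 3 probes, all assigned to the same transcript accession. Probe A_44_P561166 had levels of 0.963, 0.196, 0.150 and 0.123 in the allopurinol samples, against 0.0437, 0.0219, 0.00737 and 0.005 (the floor) in the control samples. The allopurinol samples were all higher, and the probe was well above background on 4 allopurinol and 2 control arrays. The log2 fold change was 4.15 ± 0.87 (95% interval 2.15 to 6.15, adjusted p = 0.0124 with limma). This value leaned on the floor and the background correction. Raising the floor to 0.02 gave 3.29. Normexp gave 1.28 before 75th percentile scaling (adjusted p = 0.174) and 0.97 before quantile normalization (adjusted p = 0.0887).

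The other probes of Aqp4 were not called. Probe A_64_P018751 had levels of 0.368, 0.0293, 0.0123 and 0.105 with allopurinol and of 0.0894, 0.0118, 0.0147 and 0.00531 in control, well above background on 4 allopurinol arrays and 1 control array. Its log2 fold change was 1.85 ± 1.20 (adjusted p = 0.302), and the groups overlapped. Probe A_64_P036063 gave 0.126, 0.0341, 0.0751 and 0.0377 with allopurinol and 0.0454, 0.0379, 0.0379 and 0.0441 in control. It was well above background on all 8 arrays, overlapped between the groups and had a log2 fold change of 0.52 ± 0.42 (adjusted p = 0.405). All 3 probes were highest in allopurinol replicate 1.

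Aqp6, the vesicle channel of intercalated cells, had levels of 2.83, 0.205, 0.420 and 0.486 in the allopurinol samples, against 0.668, 0.113, 0.372 and 0.0145 in the control samples. The groups overlapped, allopurinol replicate 1 being the highest of all samples and control replicate 4, which was not well above background, the lowest. The log2 fold change was 2.05 ± 1.27 (95% interval -0.89 to 4.98, adjusted p = 0.283 with limma). It was 0.95 without control replicate 4 (adjusted p = 0.528) and 1.29 without allopurinol replicate 1 (adjusted p = 0.514), and normexp gave 1.20 before 75th percentile scaling and 0.83 before quantile normalization.

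Markers of intercalated cells also varied from array to array. Their summed level was 18.9, 3.56, 11.0 and 6.23 in allopurinol replicates 1 to 4, against 4.69, 9.21, 8.19 and 3.08 in control replicates 1 to 4. Slc4a1, the chloride-bicarbonate exchanger of acid-secreting cells (log2 fold change 0.15 ± 1.14, adjusted p = 0.935), and Atp6v1b1, a proton pump subunit (-0.22 ± 0.66, adjusted p = 0.837), were not called. Slc4a1 is also a red cell gene. Of 12 intercalated cell genes tested, 3 were higher and 9 not called (all genes: 12.5% higher), with a median of 1.57. The 3 were Hmx2, Kit and Dmrt2, named after their values were seen.

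Single arrays stood out for several genes at once, in the collecting duct lists and in others. Allopurinol replicate 1 was the highest allopurinol sample for 8 of the 10 member probes, against 23.6% of all probes. These 8 include every Aqp4 probe and the probe of Aqp7, a proximal tubule gene. Control replicate 4 was the lowest control sample for 4 of the 10 member probes, 6 of the 10 principal cell genes and 6 of the 12 intercalated cell genes, against 28.1% of all probes. Among those 4 member probes were Aqp4 probes not well above background on that array. Control replicate 4 was also the lowest control sample for 8 of 16 proximal tubule, 5 of 6 erythroid and 4 of 7 endothelial genes. It was so for 1 of 6 podocyte and 0 of 4 adipocyte genes. Of 12 collecting duct transcription factors it was the lowest control sample for 4 and the highest for 4. Over all probes the correlations of control replicate 4 with the other control arrays were 0.893 to 0.924, and those of control replicate 3 were 0.893 to 0.907. Without control replicates 3 and 4, a choice made after the data were seen, the calls of Aqp2 (log2 fold change 1.35, adjusted p = 0.145), Aqp4 (2.98, adjusted p = 0.0754) and Aqp11 (-3.19, adjusted p = 0.061) were lost and those of Aqp1 and Aqp7 were kept.

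**Figure D3:**
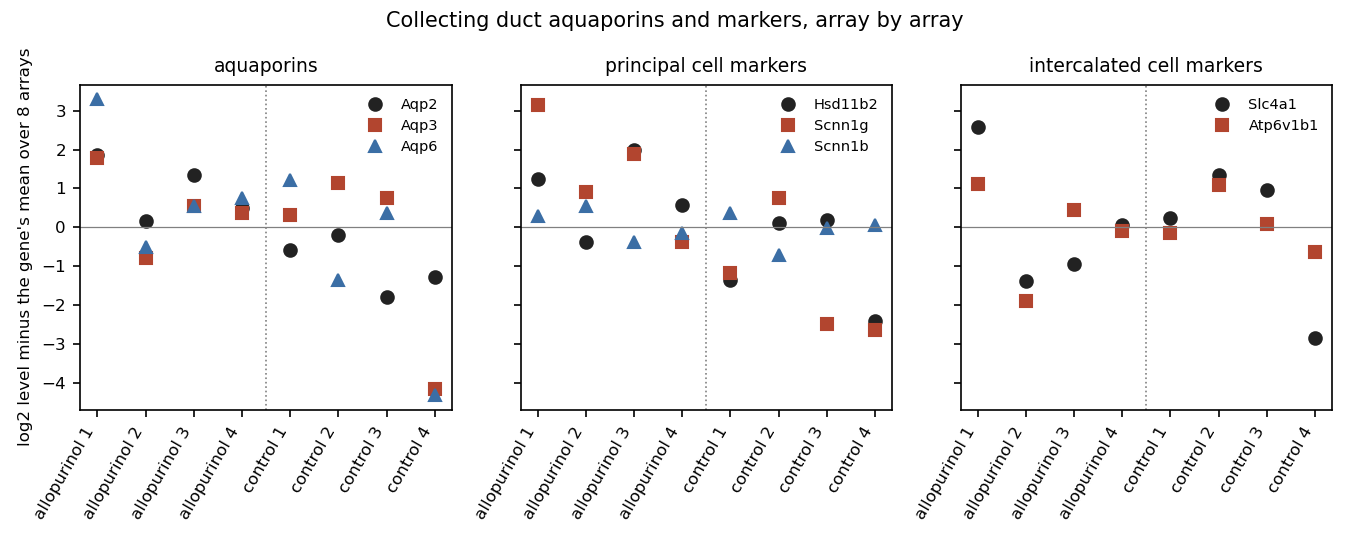
Log2 level on each array minus the gene's mean over the 8 arrays, for 3 collecting duct aquaporins, 3 principal cell markers and 2 intercalated cell markers, allopurinol left of control. Allopurinol replicate 1 is high for most of these genes. Control replicate 4 is low for Aqp3, Aqp6, Hsd11b2 and Slc4a1 but is not the lowest control sample for Aqp2 or Scnn1b.

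Avpr2, the receptor through which vasopressin acts on the collecting duct, had levels of 0.473, 0.255, 0.229 and 0.193 in the allopurinol samples, against 0.241, 0.262, 0.203 and 0.376 in the control samples. The groups overlapped throughout, with the highest sample in the allopurinol group and the next highest in control. Its log2 fold change was 0.04 ± 0.33 (adjusted p = 0.948 with limma), and the 95% interval ran from -0.73 to 0.81. The sign turned under median scaling (-0.25) and quantile normalization (-0.18), and it turned without allopurinol replicate 1 (-0.23), control replicate 1 (-0.01) or control replicate 3 (-0.09).

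Slc14a2, which encodes the urea transporters of the inner medullary collecting duct and the thin descending limb, gave almost no signal. Probe A_43_P12032 was well above background on no array and above the floor of 0.005 only in control replicate 3 (0.00942). Probe A_64_P074029 was well above background on 1 array, allopurinol replicate 1 (0.0108), and at the floor on the other 7. No fold is given, since signals this low have no order.

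The changes of the members relative to each other were set out as the log2 ratio of their probes within each array, a comparison added after the data were seen, for the 21 pairs of the 7 genes with a probe tested, Aqp4 left out because its probes disagreed. A two-sided exact permutation test over the 70 splits of 4 against 4 samples gave its smallest possible p, 0.0286, for 13 pairs, 0.0462 after Benjamini-Hochberg adjustment over the 21. Of these 13, 12 set 1 of the 3 genes already called lower against another gene and so repeat those calls. The remaining pair, Aqp2 and Avpr2, likewise repeats a call. Aqp2 was already called higher (log2 fold change 1.93) and Avpr2 was not called (0.04). The adjusted value of this pair also depends on how many pairs stood at the smallest p. The ratio of Aqp2 to Avpr2 was higher by 1.89 on the log2 scale with allopurinol (exact p = 0.0286), and all 4 allopurinol samples lay above all 4 control samples. The ratio of Aqp1 to Aqp2 differed by -4.61 between the groups, that of Aqp1 to Avpr2 by -2.72, that of Aqp7 to Avpr2 by -2.15 and that of Aqp11 to Avpr2 by -3.34. Among the pairs that did not pass were Aqp1 and Aqp7 (-0.57, exact p = 0.143), Aqp1 and Aqp11 (0.62, exact p = 0.514) and Aqp2 and Aqp6 (-0.12, exact p = 0.943). Aqp2 and Aqp3 did not pass either (0.97, exact p = 0.486). A factor that scales a whole array leaves such a ratio as it is.

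Genes whose 8 values ran nearest to those of a member were found as the smallest root mean square difference of log2 values after centring each gene on its mean over the 8 arrays. Nearest to Aqp1 were Glyctk, a glycerate kinase (0.16), Msrb1, a methionine sulfoxide reductase (0.17), and Cyb5a, cytochrome b5 (0.19). For Aqp2 the nearest genes lay further off, Fundc2b and the coactivator Crebbp at 0.35 each and the sialyltransferase St3gal4 at 0.38. Avpr2 had as neighbours Mrpl18, a mitochondrial ribosomal protein (0.16), Bcl2l2, a survival factor of the Bcl family (0.18), and Tulp4 (0.19). These genes were chosen for their likeness, so their values are a description.

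Along the chromosomes of the RefSeq annotation, Aqp2, Aqp5 and Aqp6 stand next to each other on chromosome 7, and Aqp7 and Aqp3 next to each other on chromosome 5. Aqp5 had a log2 fold change of -0.26 (adjusted p = 0.498) between Aqp2, which was called higher, and Aqp6, which was not called. Aqp7 was called lower and its neighbour Aqp3 was not called. Of the other aquaporins tested, Aqp9 was not called (-0.06, adjusted p = 0.938) and Aqp8, a channel of intracellular membranes, fell by 0.92 ± 0.25 (adjusted p = 0.0316). That call did not survive the removal of control replicate 1, 3 or 4 or of allopurinol replicate 2, 3 or 4, where the adjusted p reached 0.0805, and the value was -0.29 without scaling between arrays (adjusted p = 0.416) and -0.61 with normexp before 75th percentile scaling (adjusted p = 0.305).

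Around Avpr2, the vasopressin signalling list had 5 of 17 genes higher and 12 not called (all genes: 12.5% higher), with a median of 0.34. With any 1 array left out, 2 or 3 genes of the list were called higher. Pde4d, which breaks down cyclic AMP, rose by 2.81 ± 0.62 (adjusted p = 0.0154), with levels of 1.09, 0.391, 1.22 and 0.624 in the allopurinol samples, against 0.144, 0.121, 0.222 and 0.0346 in the control samples. Camk2d, a calcium-dependent kinase, rose by 2.64 ± 0.59 (adjusted p = 0.0163). Normexp before 75th percentile scaling gave 1.78 for Pde4d (adjusted p = 0.00746) and 1.12 for Camk2d (adjusted p = 0.168). The other 3, named after their values were seen, were Ptger3, a prostaglandin receptor that lowers cyclic AMP (0.96 ± 0.28), the endothelin receptor Ednrb (1.50 ± 0.38) and the purine receptor P2ry2 (1.04 ± 0.29). Each of these 3 calls was lost in at least 1 of the fits that left out 1 array, with an adjusted p up to 0.0994, 0.0706 and 0.0923. The prostaglandin receptor Ptger1 (0.65, adjusted p = 0.747) and the adenosine receptor Adora1 (-0.19, adjusted p = 0.751), also named after their values were seen, were not called. Adcy6, the main adenylyl cyclase that Avpr2 drives, had a log2 fold change of -0.12 ± 0.27 (adjusted p = 0.770), turning to 0.52 without scaling between arrays.

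Of 18 genes that move or anchor Aqp2 vesicles, 1 was lower and 17 were not called (all genes: 12.1% lower), with a median of -0.06. Vamp8, a vesicle fusion protein, fell by 1.02 ± 0.19 (adjusted p = 0.00711), with 11.7, 11.4, 10.1 and 10.1 in the allopurinol samples and 26.5, 20.3, 21.8 and 19.7 in the control samples. Without scaling its value was -0.38 (adjusted p = 0.184). Of 12 transcription factors of the collecting duct, 3 were higher and 9 not called (all genes: 12.5% higher), with a median of 1.05. Elf3, an epithelial factor of the ETS family, rose by 3.44 ± 0.38 (adjusted p = 0.000647). Creb1, a factor that binds cyclic AMP response elements, rose by 1.62 ± 0.40 (adjusted p = 0.0251 with limma). This call was lost in 10 of 26 other settings. Among these were the fits without control replicate 2 (adjusted p = 0.0624) or allopurinol replicates 1 (0.0593), 2 (0.0634) or 3 (0.0509). The replicate block (0.0603) and normexp before 75th percentile scaling (0.0871) ended it too. A link between Creb1 and the level of Aqp2 was not tested. The other was Pax8 (1.54 ± 0.23), named after its values were seen.

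Genes of the medullary gradient, which draws water through the aquaporins, were 4 lower and 1 higher of 13 tested (all genes: 12.1% lower, 12.5% higher). The median of the list was -0.68. Umod, uromodulin of the thick ascending limb, fell by 3.85 ± 1.06 (adjusted p = 0.0355), with 2.74, 12, 4.84 and 0.240 in the allopurinol samples, against 33.6, 48.3, 32.8 and 31.1 in the control samples. Leaving out any 1 array other than allopurinol replicate 2 or 4 ended this call, with an adjusted p up to 0.0793, as did testing every probe of the array (0.0581). Cldn10, a paracellular cation channel, fell by 3.57 ± 0.56 (adjusted p = 0.00332). The sodium pump modulator Fxyd2 (-2.86 ± 0.23) and Cldn16 (-1.17 ± 0.35) were the other lower genes, named after their values were seen. Slc12a1, the sodium-potassium-chloride cotransporter that builds the gradient, was not called (-0.68 ± 0.57, adjusted p = 0.427), and its value was -0.07 without allopurinol replicate 4. Slc14a1, the urea transporter of the descending vasa recta, was well above background on 1 array, allopurinol replicate 2 (0.0357), and was not tested.

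The osmolyte list holds genes by which medullary cells balance a concentrated surrounding. Of its 7 tested genes, 1 was higher and 2 lower (all genes: 12.5% higher, 12.1% lower), with a median of 0.92. Akr1b1, the aldose reductase that makes sorbitol, rose by 2.57 ± 0.40 (adjusted p = 0.00337), or by 1.01 with normexp before quantile normalization (adjusted p = 0.0154). Slc6a12, the betaine carrier, fell by 0.90 ± 0.23 (adjusted p = 0.0280), but its adjusted p reached 0.0669 when control replicate 2 or 3 or allopurinol replicate 1, 3 or 4 was removed, and the value turned to 0.22 with normexp before 75th percentile scaling. Gpx4, which reduces lipid peroxides and neither makes nor carries an osmolyte, fell by 1.13 ± 0.21 (adjusted p = 0.00756), or by 0.49 without scaling between arrays (adjusted p = 0.128). Nfat5, the transcription factor of the osmotic response, was not called (1.01 ± 0.48, adjusted p = 0.167), but was called without scaling between arrays (1.65, adjusted p = 0.0217). Its value was 1.90 on the slide with replicates 1 and 2 and 0.13 on the other.

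**Figure D4:**
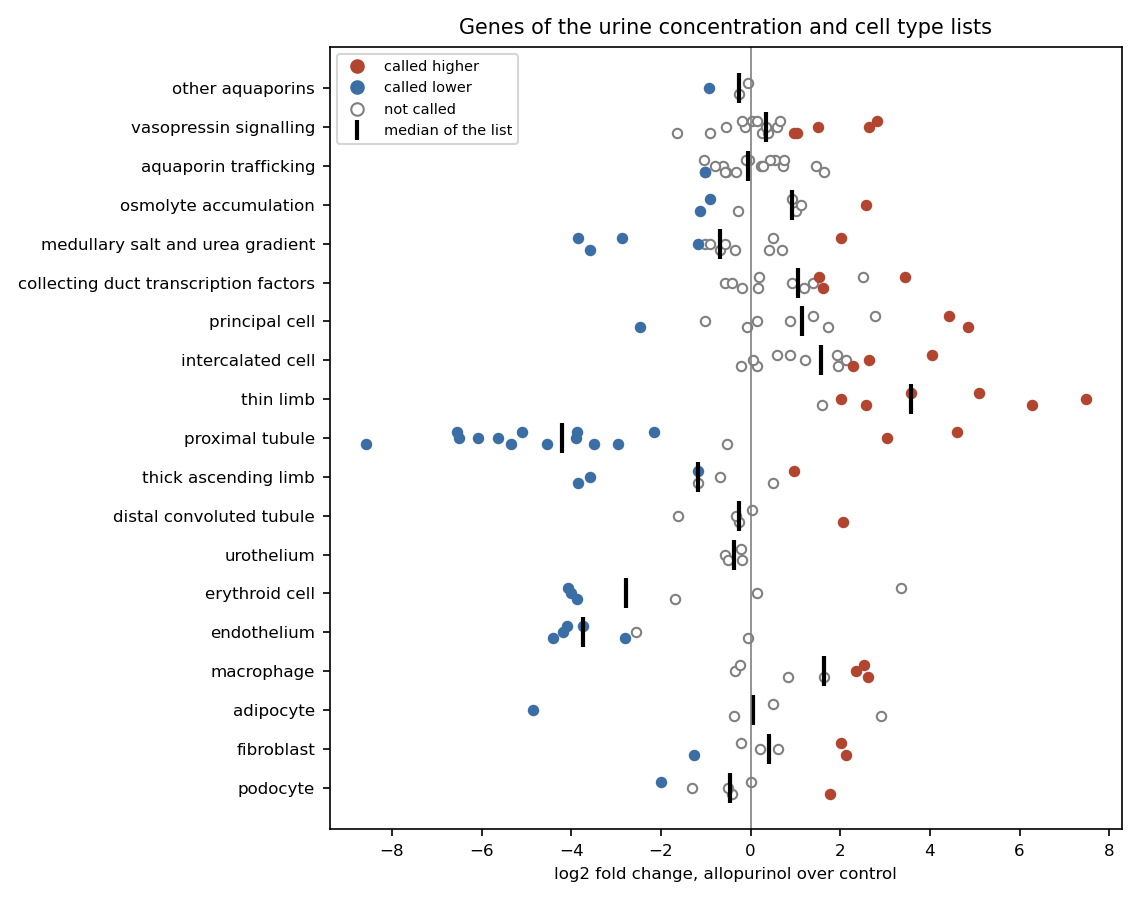
Log2 fold change, allopurinol over control, of each tested gene of the pathway and cell type lists, coloured where called, with the median of each list as a bar. Proximal tubule genes lie low with a median of -4.21 and thin limb genes high with 3.58, while the medians of the 7 uppermost lists lie between -0.68 and 1.14.

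Markers of other cell types that carry aquaporins also differed beside the members. The counts below stand beside 12.5% higher and 12.1% lower over all genes with a symbol, at 1 probe a gene. Of 7 genes of the thin limb, where Aqp1 is also expressed, 6 were higher. The summed level of the list was 13.0 to 34.6 in the allopurinol samples and 0.378 to 1.53 in the control samples. Most of each allopurinol sum came from Cldn4 (5.34 to 27.8) and S100a4 (1.99 to 6.81), both named after their values were seen. Among the 6 higher genes Epha7, a receptor of ephrins named after its values were seen, was well above background on no control array and at least 29.7-fold higher. Red cells, vessel walls and fat cells carry Aqp1 or Aqp7 as well. The summed level of the erythroid genes was 1.39 to 8.00 in the allopurinol samples and 20.8 to 48.1 in the control samples, with 3 of 6 called lower. That of the endothelial genes was 0.592 to 1.46 against 11.2 to 12.9, with 5 of 7 called lower. That of the adipocyte genes was 0.456 to 1.07 against 4.38 to 8.82, but Cidec, a lipid droplet protein and the 1 of 4 called lower, made up most of the control sums, and the other 3 genes together gave 0.230 to 0.506 with allopurinol and 0.115 to 0.308 in control. The median of the adipocyte list was 0.07. The part of these cells in the decreases of Aqp1 and Aqp7 was not tested. Urothelium genes, of which 4 were tested and none passed (median -0.36), had summed levels of 0.236 to 0.310 with allopurinol and 0.280 to 0.358 in control. Of the macrophage genes 3 of 7 were higher, of the fibroblast genes 2 of 6 higher and 1 lower, of the podocyte genes 1 of 6 higher and 1 lower, of the distal convoluted tubule genes 1 of 5 higher, and of the thick ascending limb genes 1 of 7 higher and 3 lower. With any 1 array left out, the number called higher was 1 to 3 for principal cell, 1 to 4 for intercalated cell, 2 to 4 for collecting duct transcription factor, 4 to 6 for thin limb and 2 to 4 for macrophage genes, and the number called lower was 2 to 4 for medullary gradient, 1 to 3 for thick ascending limb, 4 to 6 for endothelial and 13 in each fit for proximal tubule genes.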

How the data were processed

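Total RNA of 8 kidney samples was labelled with Cy3 and hybridised to 1-colour Agilent arrays of design 028282, 1 array per sample. Per the file headers, the spots were read with Agilent Feature Extraction 10.5.1.1, and the deposited linear intensity values (processed signals) already had background and spatial trends removed. The deposited table of the authors' log2 values was set against the scanner values: 94% of them lay within 0.01 of log2 processed signal minus the 75th percentile of the array, centred on the probe's median over the 8 arrays. Its direction is therefore known and the remaining differences are not explained, and it served as an alternative. Its column medians were -0.0724, 0.0186, -0.136 and -0.0445 for allopurinol replicates 1 to 4 and 0.0338, 0.0662, 0.0771 and 0.00597 for control replicates 1 to 4.

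Here, non-uniform spots were set to missing, the spots of a probe averaged, the signal divided by the array's 75th percentile, raised to a floor of 0.005 and turned into log2. The 75th percentile was 455 ± 53.0 on allopurinol arrays and 291 ± 18.0 on control arrays (SD, n = 4 each), no probe was saturated, and 80.0% to 81.9% of probes on allopurinol arrays and 74.0% to 77.3% on control arrays were well above background. Correlations over probes were 0.913 to 0.958 within allopurinol, 0.893 to 0.933 within control and 0.794 to 0.853 between them. The 4 arrays of a group limit the precision. The fit was made per probe by limma 3.58.1 (R 4.3.3), with Benjamini-Hochberg adjustment over 24343 probes. In lists, a gene was represented by its kept probe of the highest mean. Accessions were named through RefSeq (GRCr8), which gave 18643 probes a symbol. Slide and scan coincide, and each of the 2 slides held 2 samples of each group.

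The member genes, the lists and the rule for naming genes were chosen with earlier results of these data known. The rule named every member, up to 2 called genes in each direction from each pathway list, preset markers, and the 3 genes nearest to Aqp1, Aqp2 and Avpr2. One gene that the rule named is not reported here. Alternatives changed the background correction, scaling, floor, filter, spot removal, probe choice, slide, replicate block and the arrays included. The fit was tested on simulated data.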

Additional observations from a re-analysis of the deposited data

Results flagged for a closer look

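For Aqp3, control replicate 4 lay far from the other control samples, at -4.85 on the log2 scale, and its gap to the nearest of them took up 0.847 of the range of the group. All 10 spots of the probe on that array were dim. About 1 in 20 groups is marked in this way by chance. Without this array the log2 fold change of Aqp3 was -0.27 (adjusted p = 0.777 with limma), against 0.96 with it. Aqp6 and the markers Hsd11b2 and Slc4a1 were also lowest on this array. Other collecting duct genes differed. Among control samples, the principal cell marker Scnn1a (0.286) and the intercalated cell marker Slc26a4 (0.967) were highest on it, and Aqp2 and Scnn1b were not lowest on it.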

How the results depend on the processing

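Aqp1 and Aqp7 kept direction and call in all 8 fits that left out 1 array, from -2.79 to -2.57 and from -2.23 to -2.0. So did Aqp11, from -3.75 to -2.66, and the called probe of Aqp4, from 3.49 to 4.71, whereas Aqp2, from 1.63 to 2.20, kept its call in 4 of the 8. The number of member probes called higher was 1 to 2 and the number of all probes called 3692 to 4626 in these fits, against 5534 with all arrays. Normexp with the 75th percentile called 0 member probes higher with limma (adjusted p = 0.0917 for Aqp2 and 0.174 for Aqp4) and 2208 probes in all. Just 1 member probe was called higher with normexp and quantile normalization, with principal cell scaling (9960 probes in all), with detection required on all arrays, and with the replicate block (3546 probes in all). Proximal tubule scaling called 7 member probes higher and 0 lower, and 22366 probes in all. Slide 1 alone called 0 higher and 1 lower (1085 probes in all), and slide 2 alone called 1 higher and 0 lower (730 in all), with 2 samples per group. Without control replicates 3 and 4, 0 were higher and 3403 probes were called in all. Fewer samples enter these last 3 fits, and detection on all arrays left 7 member probes, with the called Aqp4 probe removed untested. Elsewhere the cause was not tested.

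The share of higher among all calls was 52.1%, but 32.6% with median scaling, 84.2% without scaling, 9.44% with principal cell and 98.7% with proximal tubule scaling, and the median log2 fold change of all probes moved to -0.29, 0.63, -1.15 and 2.80 in these settings and to 0.37 with normexp and the 75th percentile. Over all probes the same-numbered samples did not deviate together (correlations 0.00903, 0.0115, 0.0489 and -0.0135 for numbers 1 to 4). This does not settle whether the numbers pair the samples. The replicate block lowered the SE of the called Aqp4 probe from 0.87 to 0.33 and that of Aqp6 from 1.27 to 0.86, and raised those of Aqp1, Aqp2 and Avpr2. With the replicate block Aqp2 stood at 1.93 (adjusted p = 0.0667).

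Signs turned as follows. Median scaling gave -0.25 for Avpr2, -0.14 for Scnn1b and -0.13 for Slc4a1. No scaling gave 0.42 for Atp6v1b1 and 0.52 for Adcy6. Normexp with the 75th percentile gave 0.22 for Slc6a12, 0.0018 for Atp6v1b1 and 0.26 for Adcy6. Normexp with quantile normalization gave -0.10 for Avpr2 and -0.021 for Scnn1b, and quantile normalization alone -0.18 and -0.12. Principal cell scaling gave -0.18 for Aqp3, -1.11 for Avpr2, -0.62 for Aqp4 probe A_64_P036063, -0.998 for Scnn1b, -0.988 for Slc4a1 and -0.13 for Nfat5. Proximal tubule scaling gave 0.69 for Aqp7, 0.13 for Aqp1, 1.89 for Aqp8, 1.79 for Vamp8, 1.68 for Gpx4, 1.91 for Slc6a12, 2.59 for Atp6v1b1, 2.69 for Adcy6 and 2.13 for Slc12a1. Slide 1 alone gave -0.24 for Aqp3, -0.20 for Slc4a1 and 0.17 for Slc12a1. Slide 2 alone gave -0.39 for Avpr2, -0.30 for Scnn1b and 0.43 for Atp6v1b1. Without control replicates 3 and 4, Aqp3 was at -0.26 and Slc4a1 at -0.72. With 1 array left out, values that turned ran from -0.23 to 0.21 for Avpr2, from -0.27 to 1.5 for Aqp3, from -0.071 to 0.30 for Scnn1b, from -0.77 to 0.64 for Slc4a1, up to 0.38 for Atp6v1b1 and up to 0.012 for Adcy6. Dim probes, Aqp4 and Slc14a2 above all, are limited by their signal over background.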
